A study of Mus musculus with 4 samples.

Results

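Collagens, laminins and integrins are the genes of the extracellular matrix and of the receptors that hold cells to it. They were taken by symbol, as Col with 2 numbers around an a, as Lama, Lamb or Lamc with a number, and as Itga or Itgb with a number or letter. This gave 82 of 21631 protein-coding mouse genes: 44 collagens, 11 laminins and 27 integrins. The measurements came from chromatin immunoprecipitation and sequencing with an antibody against DNMT3B, which places new methyl groups on cytosines, mostly where a C is followed by a G (CpG). The material was lung metastases of 4T1, a mammary tumour line of BALB/c mice, in 2 antibody libraries and 2 input libraries without antibody. Lungs numbered 3 and 5 each gave 1 library of either kind. The labels name no treatment, genotype or age, and do not say whether these lungs came from separate mice or whether lung tissue was removed from the tumour. The lists of regions carry no reads, scores or values per library, so the depth is unknown and no spread between replicates can be given. Shares below therefore describe the deposited lists, and none was tested. A gene without a region is one that the lists do not name, which does not show that DNMT3B was absent there.

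Collagens are trimers that form fibrils, sheets or transmembrane rods, and collagen IV is the sheet-forming collagen of basement membranes. Laminins are cross-shaped trimers of an alpha, a beta and a gamma chain, and form the other main network of basement membranes. Integrins are pairs of an alpha and a beta chain that bind collagens, laminins and other ligands outside the cell and link them to actin or, for alpha6beta4, to keratin filaments. Carcinoma cells that settle in the lung meet a basement membrane at capillaries and airways.

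The broad islands called by SICER reached 30 of the 82 genes (36.6%, exact 95% binomial interval 26.2 to 48.0, counting error only). Of all protein-coding genes, 17.4% were paired with an island. Laminins had an island most often, at 6 of 11 genes (54.5%), followed by 10 of 27 integrins (37.0%) and 14 of 44 collagens (31.8%). The intervals of the 3 families overlap, and they treat genes as independent although some lie side by side. The order of the families was not tested and is not resolved. The narrow regions called by MACS named 10 of the 82 genes (12.2%, 6.01 to 21.3), against 6.21% of all protein-coding genes. Of these 10, 9 also had an island (9 of the 82 genes, interval 5.14 to 19.8%), where 2.49% of all protein-coding genes had both. Col8a1 was the member with a narrow region and no island, and 51 genes had neither.

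**Figure D1:**
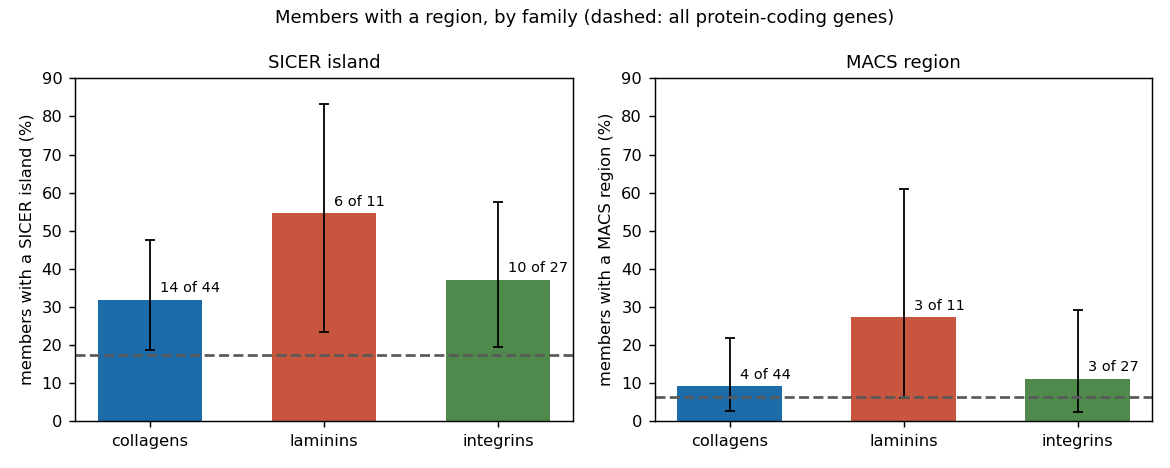
Percent of collagen, laminin and integrin genes with a SICER island (left) or a MACS region (right). Bars give the share, whiskers the exact 95% binomial interval, and the dashed line the share of all protein-coding genes (17.4% and 6.21%); laminins have the highest bar in both panels, with the widest whiskers.

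These are long genes, with a median RefSeq length of 76308 bp against 17329 bp over all protein-coding genes. In every class of length the members had islands more often than all genes of that class. Under 20 kb these were 4 of 8 members (interval 15.7 to 84.3%), against 14.5% of all genes. From 20 to 50 kb they were 10 of 23 (23.2 to 65.5%, all genes 21.7%). From 50 to 100 kb they were 5 of 14 (12.8 to 64.9%, all genes 20.8%). From 100 kb upwards they were 11 of 37 (15.9 to 47.0%, all genes 19.2%). In the classes from 50 kb upwards the interval thus includes the share of all genes. The median RefSeq length was 59374 bp for members with an island and 102572 bp for the 52 without. Narrow regions named 4 of 23 members from 20 to 50 kb (all genes 7.25%) and 2 of 14 from 50 to 100 kb (8.99%). They named 4 of 37 from 100 kb upwards, where 170 of 2427 protein-coding genes had one, and none of the 8 under 20 kb, where 583 of 11655 had one.

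Among the basement membrane collagens, islands were called along both Col4a1 and Col4a2 and at none of the other collagen IV genes. Col4a1 and Col4a2 encode the chains of the most widespread collagen IV trimer and are transcribed away from each other from a shared start region. Col4a1 was paired with 8 islands and Col4a2 with 5, of which the widest, from 11379400 to 11399199 on chromosome 8, measured 19800 bp. Col4a3, Col4a4, Col4a5 and Col4a6, which form the collagen IV of specialised membranes such as that of the kidney glomerulus, had neither an island nor a narrow region. Col4a5 and Col4a6 lie on the X, where 0.311% of protein-coding genes had an island.

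The shared start of Col4a1 and Col4a2 lay under an island, with a narrow region on each side of it. A narrow region from 11312200 to 11312700 lay 126 to 626 bp inside Col4a1, and a second from 11313000 to 11313100 lay 172 to 272 bp inside Col4a2. Both fell in an island of 7200 bp, from 11311600 to 11318799. The list pairs this island with Col4a1 only, although it also covers the first 5.97 kb of Col4a2, and the next island, of 9600 bp, covers Col4a2 from 6.57 to 16.2 kb and is paired with Col4a1 as well. A further island, of 15800 bp and paired with the neighbour Rab20, lies over the Col4a2 end. With these, 68.5% of the Col4a2 body was under an island, against 48.4% from the islands paired with it, and 45.0% of Col4a1 was. Such shares were high for these genes: over the 30 members with an island the median was 11.6%, with or without islands of neighbours. Over all 3771 protein-coding genes with an island it was 16.5% from their own islands and 23.4% with those of neighbours. The remaining narrow region, from 11187800 to 11188300, lay 10123 bp beyond the Col4a1 end by the deposited distance, in an island of 4200 bp.

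**Figure D2:**
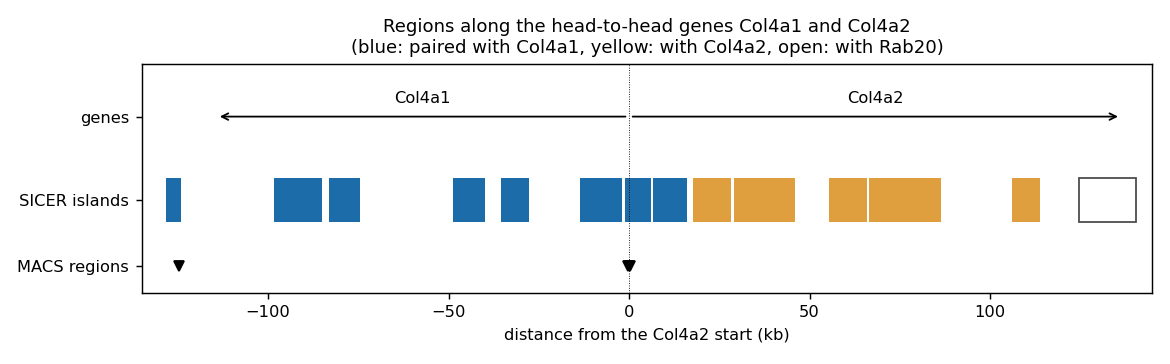
SICER islands (boxes) and MACS regions (triangles) along Col4a1 and Col4a2, by distance from the Col4a2 start in kb, with arrows for the direction of transcription. Blue boxes are paired with Col4a1, yellow with Col4a2 and the open box with Rab20. Islands run without long gaps across the shared start, where the triangles of both genes overlie each other, and the triangle at the left marks the region beyond the Col4a1 end.

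In RefSeq (GRCm38.p6) the starts of the 2 transcripts overlap. The sequence below, of the plus strand at chr8:11312801-11312830, is shown because both transcripts begin in it. Capitals mark the 22 bases between the Col4a2 start and the Col4a1 start, and the run holds 5 CpG.
Col4a1-Col4a2: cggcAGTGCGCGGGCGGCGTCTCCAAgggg
RefSeq start windows, from 250 bases before to 50 after a start, were given for 59 of the 82 genes. The Col4a1 window held 37 CpG, more than 93.0% of the windows of all protein-coding genes, and the Col4a2 window held 33. The median over 17274 protein-coding genes was 14 CpG (quartiles 4 and 24).

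Other network-forming and short-chain collagens carried little. Col8a1, a collagen of vessel walls and of the membrane beneath the corneal endothelium, had an intronic narrow region on chromosome 16 from 57696400 to 57696600, outside islands. Chromosome 16 is where 35.3% of protein-coding genes had a narrow region. Col8a2 and Col10a1, the latter a product of hypertrophic cartilage, had neither kind of region.

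Of 11 fibrillar collagen genes, 3 had islands. Col5a1, whose chain controls the diameter of collagen fibrils, had 10, the most of this subfamily. They began with 12200 bp over the gene start, which reached from 4.14 kb upstream to 8.06 kb inside, and ended with 4600 bp over the gene end. Together they covered 34.4% of the gene. Col1a1, which encodes the main chain of collagen I, had 2 islands between 5.22 and 15.4 kb of a gene of 15588 bp and 1 beyond its end, and 61.6% of its body was covered. Its partner chain Col1a2 had none, nor did Col3a1, the other abundant fibril collagen of soft tissue, or Col5a2. The single island paired with Col5a3 lay beyond the gene end, and an island of 1400 bp paired with the neighbour Rdh8 lay 2.08 to 3.48 kb inside the gene. The cartilage collagen genes Col2a1, Col11a1 and Col11a2, and Col24a1 and Col27a1, had none. No fibrillar collagen had a narrow region.

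Col18a1 had more islands than any other of the 82 genes. It encodes a basement membrane proteoglycan whose C-terminal fragment is endostatin. Its 13 islands covered 50.1% of a gene of 114353 bp, from 1.72 kb upstream of the start to 104 kb inside, and the widest measured 10200 bp. Among 3771 protein-coding genes with an island, this count ranked 13. Over these genes the median was 1 island, and it was 2 over the 30 members. At least 2 islands were paired with 21 of the 30 members, against 47.4% of the 3771 genes, and at least 4 with 9 of 30, against 13.1%. The members with islands have a median deposited length of 54372 bp and the 3771 genes one of 21066 bp. Gaps between islands can be as short as 600 bp, and with islands less than 1 kb apart counted as 1 the 96 islands of the members became 66. At least 2 were then left for 16 of the 30 members (37.3% of the 3771 genes), and at least 4 for 3 of 30 (6.66%), namely Col18a1 with 9, Col5a1 with 8 and Col4a1 with 6. Lama5 had 2 in place of 7 and Itga3 1 in place of 4. Col15a1, the other multiplexin, had 2 islands inside the gene.

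The remaining collagens had islands at 7 of 22 genes. Col17a1, a transmembrane collagen of hemidesmosomes in skin and other epithelia, had 4 islands in its 3' part, from 22.9 to 44.5 kb of a gene of 45703 bp, the widest of 12400 bp. Col26a1, which the island list holds under the older name Emid2, had 2 islands from 117 to 133 kb and a narrow region 977 bp inside the start, outside islands. Col20a1 had 2 islands, and Col22a1 and Col23a1 had 1 each. An island of 10200 bp paired with the neighbour Agxt2l2 lay over the Col23a1 end. Col6a1 and Col6a2, chains of the beaded filaments around cells, each had 1 island, upstream of the gene in both: the edge nearest the gene was 0.811 kb from the Col6a1 start and 8.85 kb from the Col6a2 start. The list extends genes by 10 kb on each side, so such islands do not touch the gene they are paired with. No island or narrow region was found for Col6a3 to Col6a6, for the anchoring fibril gene Col7a1, for Col28a1, for the transmembrane collagens Col13a1 and Col25a1, or for the fibril-associated genes Col9a1, Col9a2, Col9a3, Col12a1, Col14a1, Col16a1 and Col19a1.

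**Figure D3:**
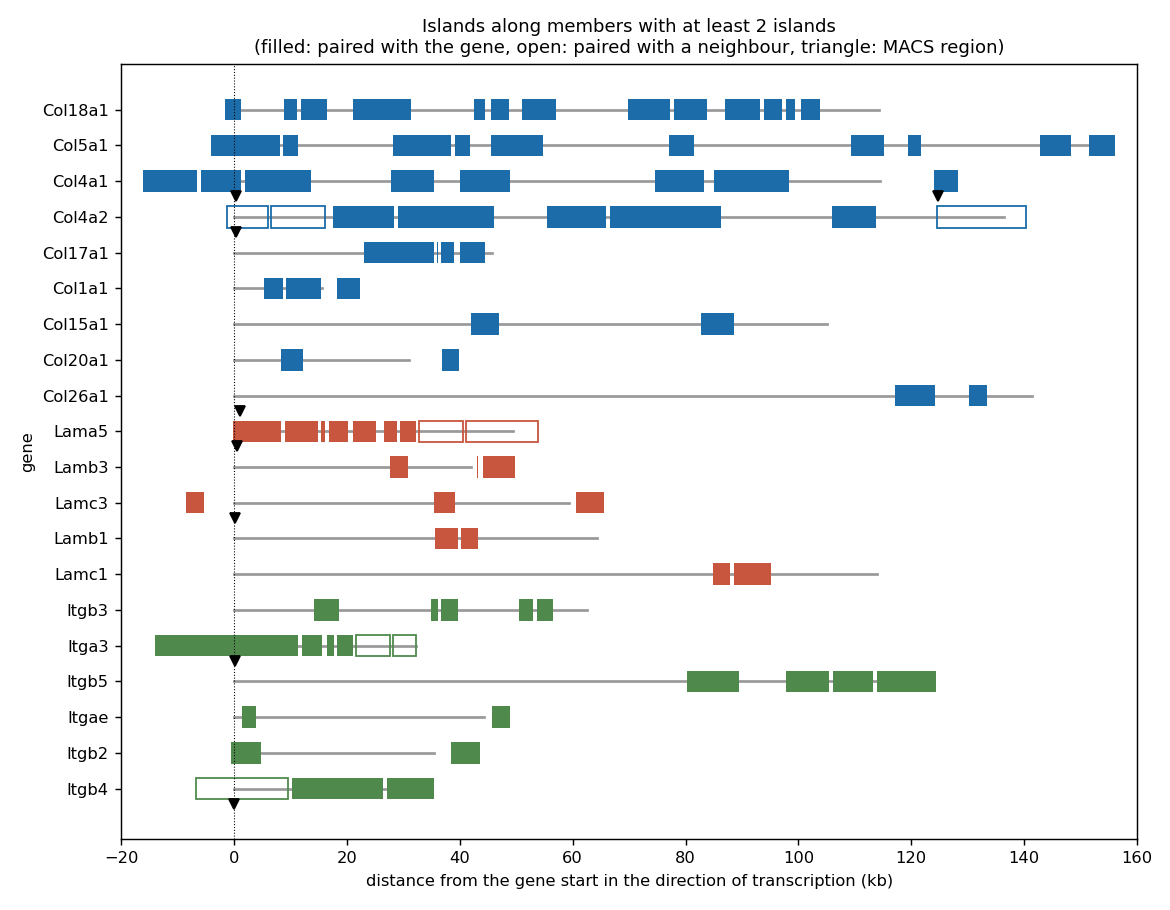
Islands along 20 of the 21 members with at least 2 islands, by distance from the gene start in kb in the direction of transcription (grey line: gene body as deposited). Filled boxes are islands paired with the gene, open boxes are paired with a neighbour, and triangles are MACS regions; Lama5, Itga3 and Itgb4 are under islands nearly from start to end, whereas boxes in Lamc1 and Lamb1 lie only in the middle or 3' part.

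Among laminins, the gene of the alpha5 chain had the most bases under islands paired with it, 27.8 kb. Lama5, the alpha chain of most adult epithelial and vascular basement membranes, had 7 islands, of which 1 of 8600 bp covered the start. Of its body 55.7% lay under islands paired with it, and 88.3% with a further 2 paired with the neighbours Adrm1 and Osbpl2. A narrow region at 179960000 on chromosome 2 lay 564 bp inside the start by a position rounded to 1000 bp, and fell in the island over the start. Common partner chains of alpha5 are beta1 and gamma1. Their genes Lamb1 and Lamc1 each had 2 islands inside the gene, from 35.6 to 43.2 kb and from 84.9 to 95.1 kb, and no narrow region. All 3 chains of this laminin thus had an island.

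Lamb3 and Lama3 encode chains of the laminin of epithelial anchorage. Lamb3 had 3 islands, of which 2 lay beyond the gene end, and Lama3 had neither kind of region. Lama3 lies on chromosome 18, where 4.70% of protein-coding genes had an island. Lamc3, the gamma3 chain, had a narrow region across its start, from 31742800 to 31743000 on chromosome 2. Its 3 islands lay elsewhere: from 8.60 to 5.40 kb upstream, inside the gene, and beyond its end. Neither was found for Lama1, an alpha chain of early embryonic membranes, Lama2, that of muscle and nerve, Lama4, found in vessels, or Lamb2, a beta chain of the kidney glomerulus and neuromuscular junction.

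Among integrin alpha chains, Itga3 stood out by width. The alpha3 chain pairs with beta1 into a laminin receptor of epithelia. Its start lay in an island of 25200 bp, from 94926800 to 94951999 on chromosome 11, the widest of all 96 islands paired with the 82 genes. This island reached from 14.0 kb upstream to 11.2 kb inside the gene and held a narrow region from 94937900 to 94938000, 28 to 128 bp inside the start. With 3 more islands of its own and 2 paired with the neighbour Pdk2, 89.4% of Itga3 was covered. Itga7, the alpha chain of the laminin receptor of muscle, had a narrow region at 128371000 on chromosome 10, by a rounded position 132 bp inside the start, outside islands. Its single island, of 1200 bp, lay 11.7 kb inside. Itga9 had 1 island of 3600 bp, 127 kb inside the gene.

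The beta4 gene was covered almost completely, at its start by an island paired with a neighbour. Itgb4 pairs with alpha6 into the laminin receptor of hemidesmosomes. Its 2 islands, of 16200 and 8200 bp, covered 67.5% of the gene from 10.2 kb to past its end. The start lay in an island of 16400 bp paired with the neighbour Sap30bp, from 115829200 to 115845599 on chromosome 11, which raised the covered share to 95.8%. The narrow region of Itgb4, at 115836000 and 38 bp upstream by the deposited distance, fell in that island. With steps of 1000 bp, the list cannot place it before or after the start. Itga6, its partner, had neither kind of region.

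Islands were paired with both chains of 2 of the integrins described here. The platelet receptor for fibrinogen is made of Itga2b and Itgb3. Itga2b had an island of 9400 bp that began 1198 bp inside the start and covered 56.7% of the gene, or 82.0% with an island paired with the neighbour Fam171a2. Itgb3 had 5 islands of 1200 to 4400 bp, all inside the gene. The receptor for E-cadherin on intraepithelial lymphocytes is made of Itgae and Itgb7. Itgae had an island from 1.30 to 3.90 kb and another beyond its end, and Itgb7 had 1 over its end. For the leukocyte integrins, Itgb2 had an island of 5200 bp over its start, whereas its partners Itgal, Itgam, Itgax and Itgad had none. All 4 partners lie on chromosome 7, where 9.01% of protein-coding genes had an island. Whether blood cells were present in the tissue cannot be read from these lists. Itgb5, a vitronectin receptor chain, had 4 islands in the last part of the gene, from 80.3 kb to past its end.

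Of the 27 integrin genes, 17 had no island, and none of these had a narrow region. Itgb1, the partner of most alpha chains, had none, nor did the collagen-binding chains Itga1, Itga2, Itga10 and Itga11, the chains Itga5, Itgav and Itga8 that bind the RGD sequence, or Itga4. The same held for Itgb6, Itgb8 and Itgb2l. A gene without an island has no position in the island list, so an island paired with a neighbour could not be looked for there.

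Narrow regions of these genes that could be placed lay mostly at gene starts. Of 10 regions whose gene has a deposited position, 9 lay within 1 kb of the start, against 68.0% of 721 pairs of a region and a protein-coding gene. The exception among these 10 was the region beyond the Col4a1 end. The intronic region of Col8a1 could not be placed, as this gene has no island and so no deposited position. By its rounding, the Col26a1 region at 977 bp may lie beyond 1 kb. In 8 of the 9 the deposited midpoint was inside the gene, and in Itgb4 it was upstream. For Itgb4, Itga7, Lama5 and Col26a1 the position is rounded to 1000 bp, which is wider than the offsets themselves. For Itga3, Lamc3, Col4a1 and Col4a2 it is rounded to 100 bp. Of all 11 narrow regions, 6 lay in an island, against 30.6% of the 1705 regions of the list.

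**Figure D4:**
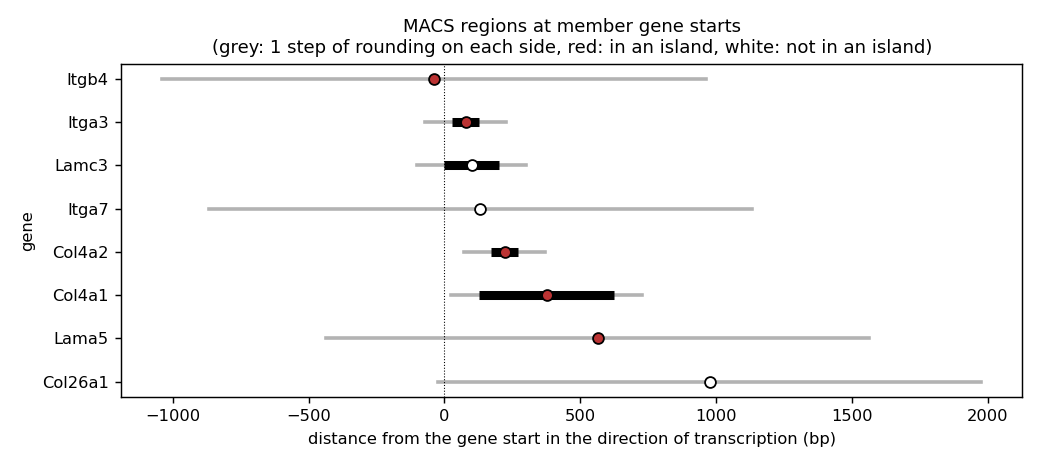
Position of 8 of the 9 MACS regions within 1 kb of a member's start, in bp in the direction of transcription. Circles give the midpoint (red in an island, white outside), black bars the region as deposited and grey bars 1 step of rounding on each side; Itga3, Lamc3, Col4a2 and Col4a1 are placed most finely, and all but Itgb4 have their midpoint past the start.

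Broad islands lay mainly inside these genes. Of the 96 islands, 73 (76.0%) lay wholly inside the gene, against 46.9% of all 8242 islands, and 6 (6.25%) lay over the start, against 12.3%. This 12.3% leaves out a further 3.17% of all islands that covered the whole gene, start included, as no member island did. The shares over the start by gene length and by gene that follow count these islands too. Gene length moves with this: in genes of 100 kb or more 42 of 49 member islands (85.7%) and 85.9% of all islands lay inside. From 20 to 50 kb these shares were 62.1% and 53.5%. Over the start lay 6.12% of member islands and 4.40% of all islands in genes of 100 kb or more, and 10.3% and 12.3% from 20 to 50 kb. In the other classes none of 6 member islands under 20 kb and none of 12 from 50 to 100 kb did, against 25.6% and 7.17% of all islands, so the members' share was not lower in every class. By gene, 6 of 30 members had an island of their own over the start (31.0% over all genes with an island). They were Col4a1, Col5a1, Col18a1, Itga3, Itgb2 and Lama5. Counting islands paired with a neighbour adds Col4a2 and Itgb4, which gives 8 of 30, against 37.3%. A further 4 islands lay over gene ends, 4 wholly upstream and 9 wholly downstream. Island width was close to that of the list, with a median of 4500 bp (quartiles 3000 and 7450) against 4800 bp (3000 and 7600).

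Where a window was given, starts under an island or within 1 kb of a narrow region held more CpG than the median window. Of the 6 members with their own island over the start, 5 have a window. These held 16 to 37 CpG, with a median of 24. Of the 9 members with a narrow region within 1 kb of the start, only 4 have a window, and these held 24 to 37. They include Col4a1 and Col4a2, which share a start region. Col4a1, Itga3 and Lama5 are in both sets. Over 19 members with an island anywhere the median was 16, and over 40 without it was 12. Windows as dense were also found without any region: Col8a2 held 32 CpG, Col13a1 29 and Itgb1 27. CpG was searched as the letters CG, which read the same on both strands, and 16410 of the 17274 windows held at least 1.

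The bases before the gene starts are shown for genes whose start lay in or beside an island, to set dense against sparse CpG. Capitals mark CpG, each run reads 5′ to 3′ on the gene's strand, and only bases outside the RefSeq gene are printed (GRCm38.p6). Itga3 and Lama5 also had a narrow region, which as deposited lay inside the gene and not in the printed bases. For Lama5 the position is rounded to 1000 bp, so the region may have reached the printed bases. Itga2b, whose island began past the start, is the sparse case, with 2 CpG in 250 bases. The runs are chr11:95076845-95076964 on the minus strand for Itga3, chr2:180225905-180226109 on the minus strand for Lama5, chr2:27886175-27886380 on the plus strand for Col5a1, chr10:77166531-77166780 on the minus strand for Col18a1 and chr11:102469884-102470133 on the minus strand for Itga2b.
Itga3: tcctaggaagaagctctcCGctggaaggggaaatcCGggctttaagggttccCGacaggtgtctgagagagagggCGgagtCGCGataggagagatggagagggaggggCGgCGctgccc
Lama5: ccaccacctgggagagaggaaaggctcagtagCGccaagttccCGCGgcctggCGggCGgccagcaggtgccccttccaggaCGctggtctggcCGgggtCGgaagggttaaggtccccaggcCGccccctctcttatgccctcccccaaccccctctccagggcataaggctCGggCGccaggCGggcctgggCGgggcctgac
Col5a1: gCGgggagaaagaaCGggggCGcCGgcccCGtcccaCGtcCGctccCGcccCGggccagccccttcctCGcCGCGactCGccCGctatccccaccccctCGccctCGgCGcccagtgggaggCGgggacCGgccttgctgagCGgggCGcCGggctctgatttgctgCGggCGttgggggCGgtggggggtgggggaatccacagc
Col18a1: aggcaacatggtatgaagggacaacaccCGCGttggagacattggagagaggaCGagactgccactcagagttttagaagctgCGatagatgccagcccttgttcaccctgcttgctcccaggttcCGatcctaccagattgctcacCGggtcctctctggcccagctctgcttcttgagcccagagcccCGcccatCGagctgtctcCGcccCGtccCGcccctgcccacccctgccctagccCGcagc
Itga2b: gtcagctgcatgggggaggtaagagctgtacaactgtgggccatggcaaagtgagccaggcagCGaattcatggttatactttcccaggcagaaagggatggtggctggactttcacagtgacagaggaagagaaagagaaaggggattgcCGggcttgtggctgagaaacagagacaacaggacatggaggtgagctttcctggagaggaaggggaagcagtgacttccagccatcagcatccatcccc
These runs held 8 CpG in 120 bases for Itga3, 13 in 205 for Lama5, 25 in 206 for Col5a1 and 12 in 250 for Col18a1. Methylation of these bases was not measured.

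The members with islands were spread unevenly over chromosomes. On chromosome 11 all 7 members had an island: Col1a1, Col23a1, Itga2b, Itga3, Itgae, Itgb3 and Itgb4. There 31.5% of protein-coding genes had one. Chromosomes 3, 6, 7, 13, 17, 18 and X hold 17 members, none with an island, and 752 of their 7504 protein-coding genes had one. Without chromosome 11, 23 of 75 members had an island (30.7%), against 16.3% of protein-coding genes.

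**Figure D5:**
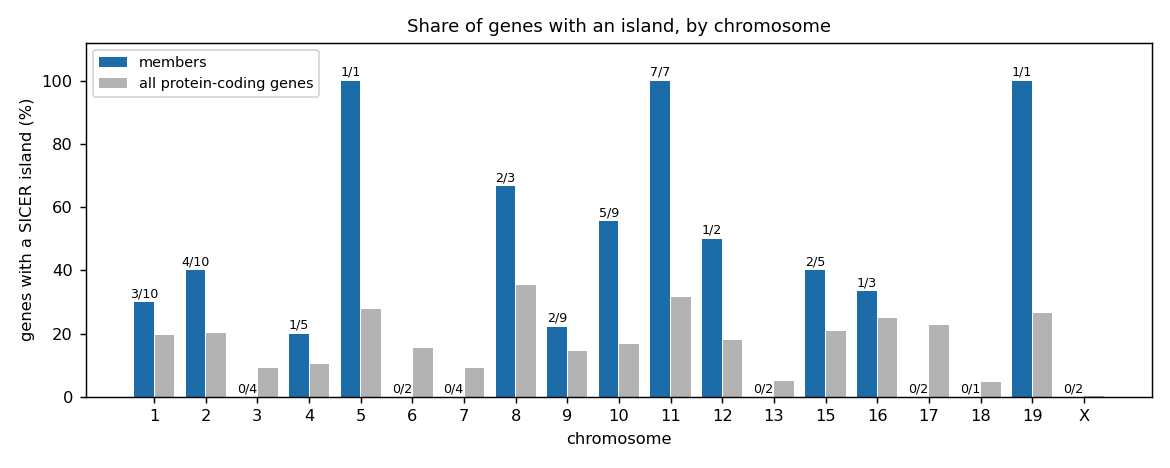
Percent of genes with a SICER island by chromosome, for the members (blue, with the number of members) and for all protein-coding genes (grey); chromosome 14 holds no member and is left out. Bars start at 0; chromosome 11 has 7 of 7 members with an island, and many chromosomes hold too few members to place a share.

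Other genes of matrix and adhesion were counted in the same way, from lists drawn up by function. Earlier results of these data were known when the lists were drawn up, so their shares are not independent of these data. Of 76 such genes, 29 had an island (38.2%) and 10 a narrow region (13.2%), shares close to those of the 82 genes. Over all protein-coding genes these shares were 17.4% and 6.21%. The other genes were not split by length. Focal adhesion and integrin adaptor genes had islands at 10 of 20. Tns3, an actin-linked tensin, had 13, the widest of 48800 bp. Actn1, the crosslinker alpha-actinin, had 11, and Src, a kinase activated at integrins, had 8 and a narrow region. Bcar1, a Src substrate scaffold, had 5 that covered 92.4% of the gene. The talin gene Tln1 and the paxillin gene Pxn had 2 each, and the vinculin, kindlin, Ilk and parvin genes had none.

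Genes that fold, trim and crosslink collagen had islands at 8 of 18, each with 4 at most, and a narrow region at Plod3, a lysyl hydroxylase. Among other matrix proteins 6 of 20 had islands, with 4 in the perlecan gene Hspg2 and none in the fibronectin gene Fn1. The nidogen genes, whose products link laminin and collagen IV networks, had none. Proteases and their inhibitors had islands at 2 of 12 (16.7%), Mmp9 and Timp2, which is near the 17.4% of all protein-coding genes. Mmp9, a gelatinase, also had a narrow region. Of 6 other matrix receptors 3 had islands: Sdc1 with 5 over 90.1% of the gene, Sdc4 with 2 over 74.2%, and the collagen receptor Ddr1 with 1 over its start.

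Positions are given as deposited. For the 30 members with an island, the deposited gene end differed from GRCm38, the assembly of the build named in the labels, by a median of 178 kb. It was within 1 kb for Col4a1, Col4a2 and Itgb5. Offsets from gene starts compare deposited positions with each other and do not use GRCm38. They would be wrong for a gene whose regions and gene positions stand in different builds, which the lists do not record.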

How the data were processed

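The authors deposited 2 lists of base positions for the whole series. The submitters' processing notes name Bowtie2 2.10, MACS 1.4, SICER and the build mm10 (the MACS list is itself named for MACS2). No source used here tells whether libraries were pooled. Per the file headers, the MACS list gives a region, its nearest gene, the distance and the wording of the overlap. Its 4304 lines hold 1705 distinct regions, each counted once, with positions of at most 6 significant digits. The SICER list gives 8242 islands in steps of 200 bp, each paired with 1 gene and its transcript position. The name of the SICER list holds the word top, and that of the MACS list what may be a p-value cut-off. The rules behind these names are not given, so either list may have been cut.

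Names were resolved to the RefSeq table of GRCm38 by transcript, symbol or unique synonym (99.9% of regions and 99.95% of islands). The whole symbol had to match, so Itgb3bp, Itgb1bp and Itgbl symbols are not members. A member had a narrow region if the MACS list named it, and an island if the SICER list paired it. Overlap meant at least 1 bp. Shares over members stand beside those over 21631 protein-coding genes of chromosomes 1 to 19 and X. Exact binomial intervals (scipy 1.17.1) cover counting error only. Placement rules were tested on simulated islands. The families and lists were chosen with earlier results of these data known. Named with positions are members with a narrow region, at least 2 islands, an island over the start, or 1 of the 10 widest islands. The values of 1 member are counted in totals and not reported here.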

Additional observations from a re-analysis of the deposited data

How the results depend on the processing

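No paired analysis was possible because neither deposited list carries anything per sample, and no library could be left out for the same reason. The count of members with a narrow region was 9 or 10 under each rule, and that of members with both kinds was 8 or 9. The rules took regions up to 5 kb upstream, within 20 kb or by overlap only, took symbols by prefix, or left out chromosome 16. Of all protein-coding genes, 5.98% had a narrow region up to 5 kb upstream, 6.14% within 20 kb and 5.09% by overlap only. Members with an island numbered 27 to 30. Col5a3, Col6a1 and Col6a2 dropped out where the island had to touch the gene (14.0% of all protein-coding genes remained). Itga7 and Itgb7 were among those that did where it had to be 3 kb wide (14.5% remained). With the island midpoint in the gene or up to 5 kb upstream, 28 members and 13.4% of all protein-coding genes had one. Members with an island at the start numbered 9 in place of 6 with islands within 2 kb, which adds Col6a1, Itga2b and Itgae. The share over all genes under that rule is not given here. The alternatives chosen after seeing the data were leaving out chromosome 11 (23 members with an island), islands of neighbours at starts (8 members) and joining islands less than 1 kb apart. Joining left 66 of 96 islands, 16 in place of 21 members with at least 2 and 3 in place of 9 members with at least 4, and the counts of single genes fell further: Lama5 from 7 to 2, Itga3 from 4 to 1, Col17a1 and Itgb5 from 4 to 2, Col4a2 and Itgb3 from 5 to 3, and Itgb4, Lamb1 and Lamc1 from 2 to 1. Col18a1 had 9 and Col5a1 had 8. The median island width was 4400 bp for islands that touch the gene, in place of 4500 bp. In the narrow list 6 regions lay in islands under each of 3 rules of overlap.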

Other observations

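Some members with islands lay side by side. On chromosome 10, Col6a2, Col6a1, Col18a1 and Itgb2 lie within 970 kb as deposited, from 76058500 to 77028419, and all 4 had an island. Of the 10 protein-coding genes that RefSeq places from Col6a2 to Itgb2, these 4 included, 7 had one (70.0%), so other genes there had islands too. Over chromosome 10 the share was 16.6%, but the stretch was chosen because members with an island bound it. From Lama5 to Col20a1 on chromosome 2 islands were paired with 10 of 20 protein-coding genes, against 20.2% over chromosome 2. The 10 include Lama5 and Col20a1 but not Col9a3 between them, and this stretch was chosen in the same way.

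The MACS list repeats many regions in identical lines, and what a repeat stands for is not given. The region inside Col4a1 filled 18 lines and the one beyond its end 16. The median over the 1705 regions was 1 line, the maximum was 55, and 18 regions had at least 16.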
